A study of Mus musculus with 16 samples.

Results

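Slc6a3, Slc18a2, Slc10a4, Drd2, Gpr37 and Sncg encode the dopamine transporter of the plasma membrane, 2 vesicular transporters, the dopamine autoreceptor and 2 further proteins studied in dopaminergic terminals and axons. These 6 of 25006 listed genes were taken by name from the functional class of dopamine transporters, autoreceptor and presynaptic regulators. The choice was made with earlier results of these data known. Their levels, their variation from mouse to mouse and their response to loss of the mitochondrial calcium uniporter were examined.

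A dopaminergic neuron takes released dopamine back up through the transporter DAT (Slc6a3) and packs it into vesicles with the vesicular monoamine transporter VMAT2 (Slc18a2). Dopamine outside the cell also acts on the D2 receptor (Drd2) of the same neuron, which slows firing and release and so closes a feedback loop. In neurons of the substantia nigra pars compacta (SNc), which fire on their own without synaptic drive, vesicular packing keeps reactive dopamine out of the cytosol.

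RNA bound to tagged ribosomes was sequenced from the substantia nigra of 16 mice. All mice were DAT-Cre+/-, that is, they carried 1 copy of a Cre recombinase allele under the control of the dopamine transporter. The 8 mice called wild type here are the labelled controls, of genotype DAT-Cre+/-, which the study bred from DAT-Cre+/+ and C57/BL6 parents. The 8 MCU-KO mice were DAT-Cre+/- MCU fl/fl, so that Cre removes the floxed Mcu sequence in cells that express DAT. All mice were labelled p45 and received, 30 days before dissection, a stereotaxic injection of a viral vector with a Cre-dependent ribosomal tag, so that the tag is made in infected cells that express Cre. The Slc6a3 counts of all 16 mice therefore come from carriers of the DAT-Cre allele, whose effect on Slc6a3 cannot be told apart here, since no group lacks it. No group has the floxed allele without Cre.

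Libraries held 14129527 to 22016362 assigned reads, and the lowest total, in MCU-KO mouse 8, stood apart from the other 7 of its group. Mcu lay between 6.25 and 43.1 CPM (reads per 1000000, scaled for composition) in wild type and between 0.301 and 21.3 CPM in MCU-KO. The edgeR estimate for Mcu was a log2 difference of -1.19 (95% interval -2.41 to 0.04, adjusted p = 1.00), so Mcu was lower on average in the libraries labelled MCU-KO, but the groups overlapped and the test was not passed. The counts cover the whole gene, and reads from any exon outside the floxed stretch would still be counted, so this value is a limited check of the deletion. All 15 dopaminergic neuron markers were tested genes, with a summed level of 12808 to 17481 CPM in wild type and 11040 to 17776 CPM in MCU-KO, led by Th at means of 5939 and 5708 CPM. Glial markers were also present. The 13 oligodendrocyte markers summed to 3082 to 5868 CPM in wild type and 3533 to 6988 CPM in MCU-KO, the 10 astrocyte markers to 590 to 1103 CPM and 639 to 1330 CPM, and the 10 microglia markers to 84.2 to 230 CPM and 93.5 to 339 CPM. None of the genes in these 4 marker lists was called in edgeR or DESeq2, and 0, 0, 1 and 1 of them had an unadjusted p under 0.05. In tissue libraries of this kind, fewer tagged cells and less RNA per cell cannot be told apart.

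Stretches of sequence at the RefSeq start are shown for the 5 members with matches there, since all 6 windows held the same short motif. Whether the motif bears on the levels of these genes was not tested. They come from the RefSeq windows on GRCm38.p6 and run 5′ to 3′ on the gene's strand, from 110 bases before the start to 10 bases after it. Capitals mark matches to GGGCGG (the GC box) or TGACGTCA (the CRE) on either strand.
Slc6a3, chr13:73536637-73536756, plus strand: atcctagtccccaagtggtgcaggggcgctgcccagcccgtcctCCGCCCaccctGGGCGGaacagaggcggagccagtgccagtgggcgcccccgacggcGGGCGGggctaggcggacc
Slc18a2, chr19:59260768-59260887, plus strand: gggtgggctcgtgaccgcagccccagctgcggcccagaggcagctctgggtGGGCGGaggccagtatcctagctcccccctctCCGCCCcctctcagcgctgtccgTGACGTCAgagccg
Slc10a4, chr5:73006794-73006913, plus strand: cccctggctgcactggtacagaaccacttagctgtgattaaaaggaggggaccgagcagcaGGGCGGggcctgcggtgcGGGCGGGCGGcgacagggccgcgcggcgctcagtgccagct
Drd2, chr9:49340293-49340412, plus strand: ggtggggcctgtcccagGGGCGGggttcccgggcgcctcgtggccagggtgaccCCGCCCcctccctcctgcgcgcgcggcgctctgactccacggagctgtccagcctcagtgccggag
Sncg, chr14:34374660-34374779, minus strand: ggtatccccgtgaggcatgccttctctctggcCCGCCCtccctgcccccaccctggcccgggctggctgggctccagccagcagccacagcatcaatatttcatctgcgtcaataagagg

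Over the full windows, 250 bases before to 50 after the start, GGGCGG was found on either strand for all 6 members, and 35.7% of all 32851 windows held it. Slc10a4 had 4 matches, of which the pair nearest the start overlap each other, Slc6a3 had 3, Slc18a2, Drd2 and Gpr37 had 2 each and Sncg had 1. The windows of the members were 57.3% to 70.3% G or C, above the median window at 52.7%. TGACGTCA occurred in the Slc18a2 window alone among the 6, beginning 4 bases before the start, and in 1.79% of all windows. CACGTG (the E-box) occurred in Slc6a3 alone among the 6, 197 bases before the start, and in 7.15% of all windows. AAAGGTCA (the NBRE bound by the Nr4a family), TAATCC (a letter string of Pitx factors) and TATAAA were in no member's window, against 1.51%, 7.06% and 13.6% of all windows. Distances count from the RefSeq start, from which the GENCODE start lies 0 bases away for Slc6a3. It lies 18 bases downstream for Slc18a2 and 224 downstream for Drd2. For Slc10a4, Sncg and Gpr37 it lies 21, 120 and 749 bases upstream. The printed Sncg stretch and the Gpr37 window therefore lie inside the genes as GENCODE places them. Both strands were searched for each motif, and a match is a description of the letters only.

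Of the 6 genes, 5 were abundant messages of these libraries and Gpr37 was not. Slc6a3 (ENSMUSG00000021609, chr13:73536747-73578672, GENCODE on GRCm38), the plasma membrane transporter, ranked 6 of 12390 tested genes by CPM in wild type. Its level was 2797 CPM in the lowest, 3137 CPM in the median and 4443 CPM in the highest wild-type mouse, and 1769, 2992 and 4020 CPM in MCU-KO. Wild-type mouse 6 and MCU-KO mouse 7 were the highest, MCU-KO mice 8 and 6 lay below every wild-type mouse, and the groups overlapped. The means of the genotypes were 3265 ± 544 CPM and 2945 ± 729 CPM (SD, n = 8 each).

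Slc18a2 (ENSMUSG00000025094, chr19:59260896-59296012) loads dopamine into vesicles. It measured 1413 CPM in the lowest, 1568 CPM in the median and 2293 CPM in the highest wild-type mouse, and 1586, 1738 and 2444 CPM in MCU-KO. All 8 MCU-KO mice lay above the wild-type median, and 3 of them, mice 4, 5 and 7 at 2444, 2429 and 2392 CPM, lay above the wild-type maximum. The other 5 MCU-KO mice lay between 1586 and 1860 CPM, inside the wild-type range. Wild type averaged 1695 ± 316 CPM and MCU-KO 1944 ± 405 CPM (SD, n = 8 each).

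Slc10a4 (ENSMUSG00000029219, chr5:73006883-73012955) is a vesicular protein of monoaminergic and cholinergic terminals that belongs by sequence to the bile acid transporter family. Its wild-type values ran from 939 CPM through a median of 1076 CPM to 1285 CPM, and those of MCU-KO from 752 through 1030 to 1143 CPM. It had the smallest spread of the 6 in wild type, with a coefficient of variation of 11.1%. MCU-KO mouse 6 was the lowest of all 16, and 6 of 8 MCU-KO mice lay below the wild-type median. Wild type averaged 1091 ± 121 CPM and MCU-KO 999 ± 125 CPM (SD, n = 8 each).

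Drd2 (ENSMUSG00000032259, chr9:49340627-49408177) encodes the D2 receptor, whose long and short splice forms cannot be told apart in counts per gene. It measured 310 CPM in the lowest, 371 CPM in the median and 481 CPM in the highest wild-type mouse, and 237, 343 and 450 CPM in MCU-KO. Of the MCU-KO mice 7 of 8 lay below the wild-type median and 3 lay below the wild-type minimum, with mouse 6 lowest and mouse 7 highest. Wild type averaged 382 ± 55.9 CPM and MCU-KO 338 ± 63.3 CPM (SD, n = 8 each).

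Sncg (ENSMUSG00000023064, chr14:34370274-34374789) encodes gamma-synuclein, a small protein abundant in axons. Wild-type mice held 892 to 1315 CPM around a median of 1073 CPM, and MCU-KO mice 828 to 1202 CPM around 971 CPM. Wild-type mouse 6 was the highest and MCU-KO mouse 4 the lowest, and 6 of 8 MCU-KO mice lay below the wild-type median. Wild type averaged 1085 ± 140 CPM and MCU-KO 989 ± 113 CPM (SD, n = 8 each). Its relative Sncb stood at 233 ± 42.6 CPM (SD, n = 8) in wild type.

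Gpr37 (ENSMUSG00000039904, chr6:25665878-25690729) encodes an orphan receptor that interacts with DAT and that oligodendrocytes also express. It was the low and variable member, at 5.09 CPM in the lowest, 30.3 CPM in the median and 52.5 CPM in the highest wild-type mouse and 15.2, 38.2 and 59.2 CPM in MCU-KO. Wild-type mice 5, 6 and 7 held 5.09, 7.37 and 11.5 CPM, below every MCU-KO mouse, while mouse 1 held 52.5 CPM. The mean of wild type was 27.1 ± 17.5 CPM and that of MCU-KO 35.3 ± 14.7 CPM (SD, n = 8 each). The coefficient of variation was 64.5% in wild type and 41.6% in MCU-KO, against 11.1% to 24.8% for the other 5 genes in either group. Counting error alone gives 4.00% at the median wild-type count of Gpr37 and 9.71% at its lowest count, 106 reads. Its edgeR biological coefficient of variation was 1.21 times the trend at its level, higher than for 88.8% of tested genes relative to trend. Slc6a3 was 1.16 times the trend, while Slc10a4 and Sncg were each 0.80 times.

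**Figure D1:**
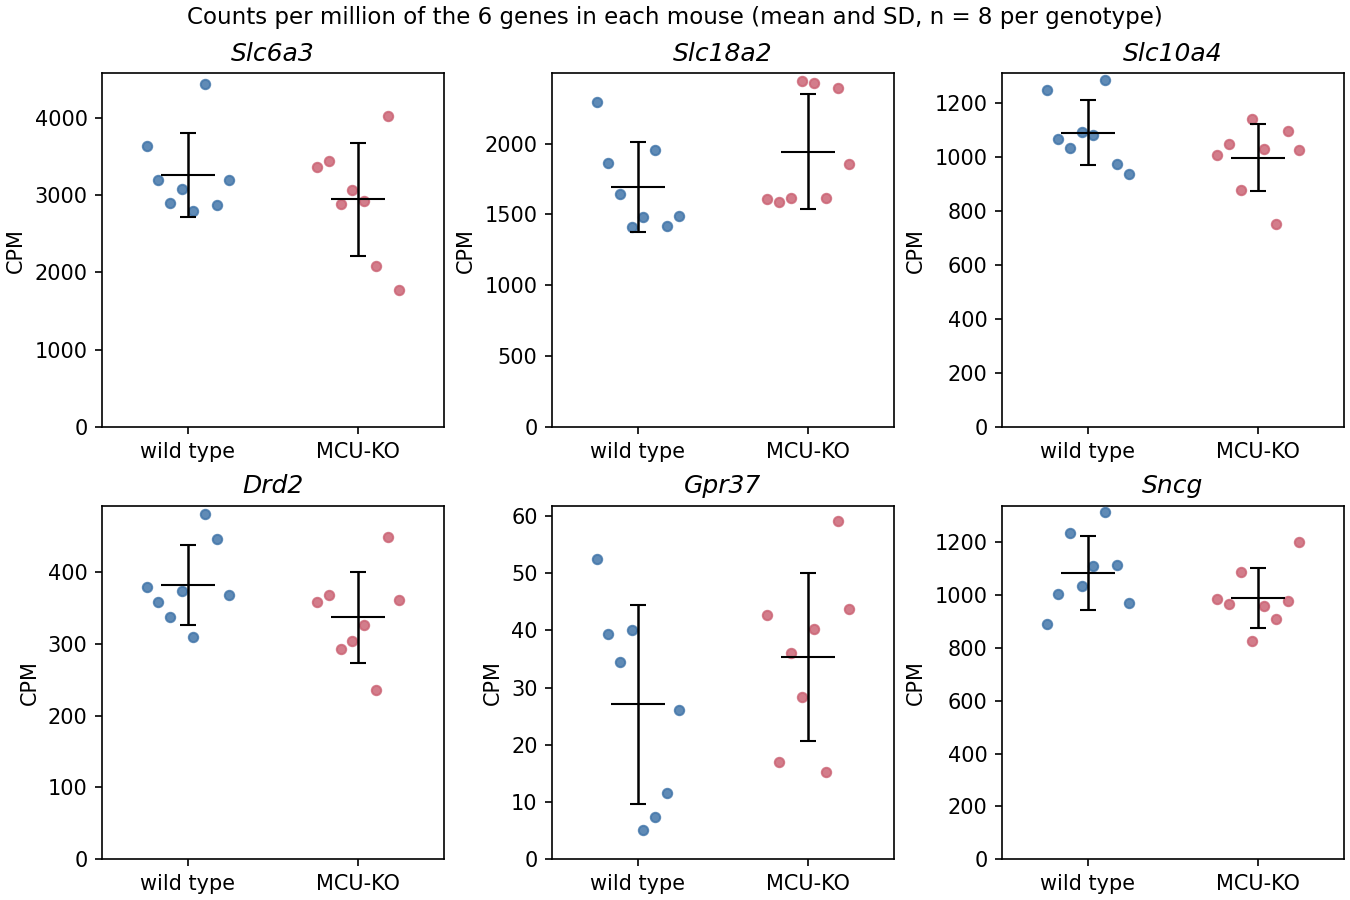
Each point is 1 mouse and the y axis, from 0, gives the CPM of 1 gene; the bar is the mean and the whiskers are the SD over 8 mice per genotype. The groups overlap in all 6 genes, with 3 MCU-KO mice above the wild-type range in Slc18a2, 2 below it in Slc6a3 and 3 low wild-type mice in Gpr37.

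Levels of different genes were compared per kilobase of exon, since longer messages collect more reads. In wild type the order was Sncg (1273 ± 164 CPM per kilobase, SD, n = 8), Slc6a3 (945 ± 157), Slc10a4 (518 ± 57.5), Slc18a2 (324 ± 60.5), Drd2 (150 ± 21.9) and Gpr37 (4.46 ± 2.88). Sncg was above Slc6a3 in 7 of 8 mice, by 0.44 ± 0.26 (SD, n = 8) on the log2 scale, with an exact two-sided sign-flip p of 0.0156 (adjusted over 5 neighbouring pairs 0.0156). The other 4 neighbours kept their order in 8 of 8 mice, each with an exact p of 0.0078, the smallest that 8 mice allow (adjusted 0.0098). The order was taken from the means of these same 8 mice, so p measures how steadily each difference repeated over mice. Slc10a4 exceeded Slc18a2 1.61-fold and Slc18a2 exceeded Drd2 2.15-fold, while Drd2 exceeded Gpr37 43.5-fold, all as means of within-mouse log2 ratios. These sizes depend on the length used. With the longest transcript in place of the union of exons the order was the same. The log2 differences were then 0.44 in place of 0.69, 1.36 in place of 1.11 and 5.16 in place of 5.44.

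The order in MCU-KO was the same, with the same number of mice on the higher side for each neighbouring pair. The distance from Slc10a4 down to Slc18a2 was 0.69 ± 0.17 on the log2 scale for wild-type mice and 0.37 ± 0.23 for MCU-KO mice (SD, n = 8 each). Without division by length, Slc6a3 stood above Sncg and Slc18a2 above Slc10a4, since exon lengths run from 852 bases for Sncg to 5225 for Slc18a2 and 6068 for Gpr37.

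None of the 6 genes differed between genotypes at an adjusted p under 0.05 in edgeR's quasi-likelihood test, against 0.178% of all tested genes, that is 22 of 12390. The count was also 0 of 6 at an unadjusted p under 0.05, where 4.41% of tested genes fell, and 0 of 6 for groups that do not overlap, where 0.25% of tested genes fell. DESeq2 and limma-voom called 0 of the 6 as well.

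Drd2 and Slc6a3 had log2 fold changes of -0.18 ± 0.12 (SE) and -0.15 ± 0.13 (SE), with 95% intervals of -0.42 to 0.06 and -0.42 to 0.13. Slc10a4 and Sncg had nearly the same estimate, -0.13 ± 0.09 (SE) each, with intervals of -0.31 to 0.06 and -0.31 to 0.05. Slc18a2 had 0.20 ± 0.12 (SE), with an interval of -0.06 to 0.45. Gpr37 had 0.38 ± 0.42 (SE), with an interval of -0.48 to 1.24. All 6 edgeR adjusted p-values were 1.00. Changes beyond a fold of 0.745 to 1.37 therefore lay outside the 95% intervals of the 5 abundant genes, while for Gpr37 the interval ran from 0.718-fold to 2.37-fold.

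Single mice moved several of these estimates by over 1.5 times, and none was called with any 1 mouse left out. The Slc6a3 log2 fold change was -0.07 without wild-type mouse 6 or without MCU-KO mouse 8, -0.09 without MCU-KO mouse 6 and -0.23 without MCU-KO mouse 7. Without MCU-KO mouse 6 Slc10a4 stood at -0.07 and Drd2 at -0.12, and without wild-type mouse 6 Sncg stood at -0.08. Gpr37 was 0.23 without wild-type mouse 5, 0.24 without wild-type mouse 6 or MCU-KO mouse 7 and 0.59 without wild-type mouse 1, while no single mouse moved Slc18a2 that far. With MCU-KO mice 6 and 8 left out together, a choice made after the data were seen, the Slc6a3 value was 0.01 in place of -0.15, while Drd2 stood at -0.12 and Slc18a2 at 0.25, all with edgeR adjusted p of 1.00. With the mean of the dopaminergic markers as a covariate the Slc6a3 value was -0.19, and with the mean of the oligodendrocyte markers as a covariate the Slc18a2 value was 0.13.

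**Figure D2:**
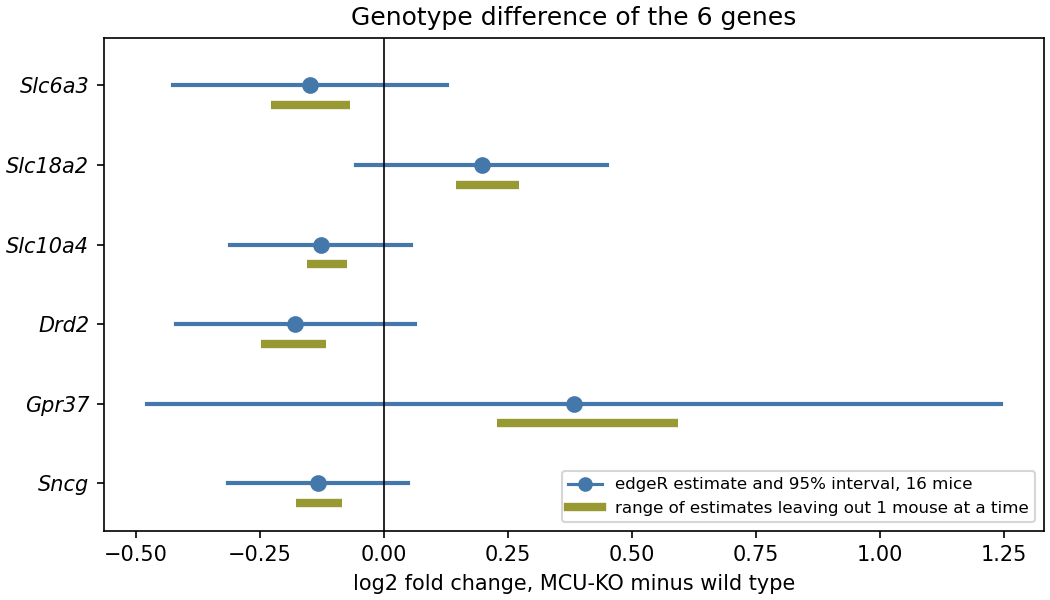
The x axis gives the log2 fold change, MCU-KO minus wild type; points and blue lines are the edgeR estimate and its 95% interval over 16 mice, and thick lines span the estimates with 1 mouse left out at a time. All 6 intervals hold 0, and the left-out estimates of Slc6a3 run from -0.23 to -0.07 and those of Gpr37 from 0.23 to 0.59.

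A ratio of 2 genes within a library does not depend on how that library is scaled, so the 15 ratios among the 6 genes were compared over mice with exact permutation tests over all 12870 splits of 8 against 8. The Slc18a2 to Slc6a3 ratio of CPM was 0.440 in the lowest, 0.512 in the median and 0.632 in the highest wild-type mouse, and 0.461, 0.685 and 1.05 in MCU-KO. The wild-type maximum was exceeded by 4 MCU-KO mice, mouse 8 the most, and the groups overlapped. The log2 ratio was higher in MCU-KO by 0.37 ± 0.16 (SE), with an exact two-sided permutation p of 0.0415, which became 0.208 after adjustment over the 15 ratios.

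Slc18a2 to Slc10a4, the 2 vesicular transporters, had the smallest p of the 15. The ratio was 1.29 in the lowest, 1.55 in the median and 1.84 in the highest wild-type mouse and 1.51, 1.99 and 2.35 in MCU-KO, with 5 of 8 MCU-KO mice above the wild-type maximum. The log2 ratio was higher by 0.32 ± 0.10 (SE), with an exact permutation p of 0.0085 and an adjusted p of 0.128. Slc18a2 to Drd2 was 3.18, 4.42 and 6.04 in the lowest, median and highest wild-type mouse and 4.30, 5.42 and 8.02 in MCU-KO, a difference of 0.38 ± 0.16 (SE) on the log2 scale (exact permutation p = 0.0315, adjusted 0.208). None of the 15 passed 0.05 after adjustment, and the 3 with the smallest p share Slc18a2, so they are not separate results.

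Among the ratios with neither Slc18a2 nor Gpr37, Slc6a3 to Drd2 differed by 0.01 ± 0.13 (SE) on the log2 scale (exact permutation p = 0.943) and Slc10a4 to Sncg by less than 0.01 (exact permutation p = 0.998). The 5 ratios with Gpr37 had larger differences and larger errors. On the log2 scale Slc6a3, Slc10a4 and Drd2 to Gpr37 differed by -0.82, -0.77 and -0.83, Slc18a2 to Gpr37 by -0.45 and Gpr37 to Sncg by 0.77, with errors from 0.48 to 0.54 (SE) and exact permutation p-values from 0.129 to 0.356.

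**Figure D3:**
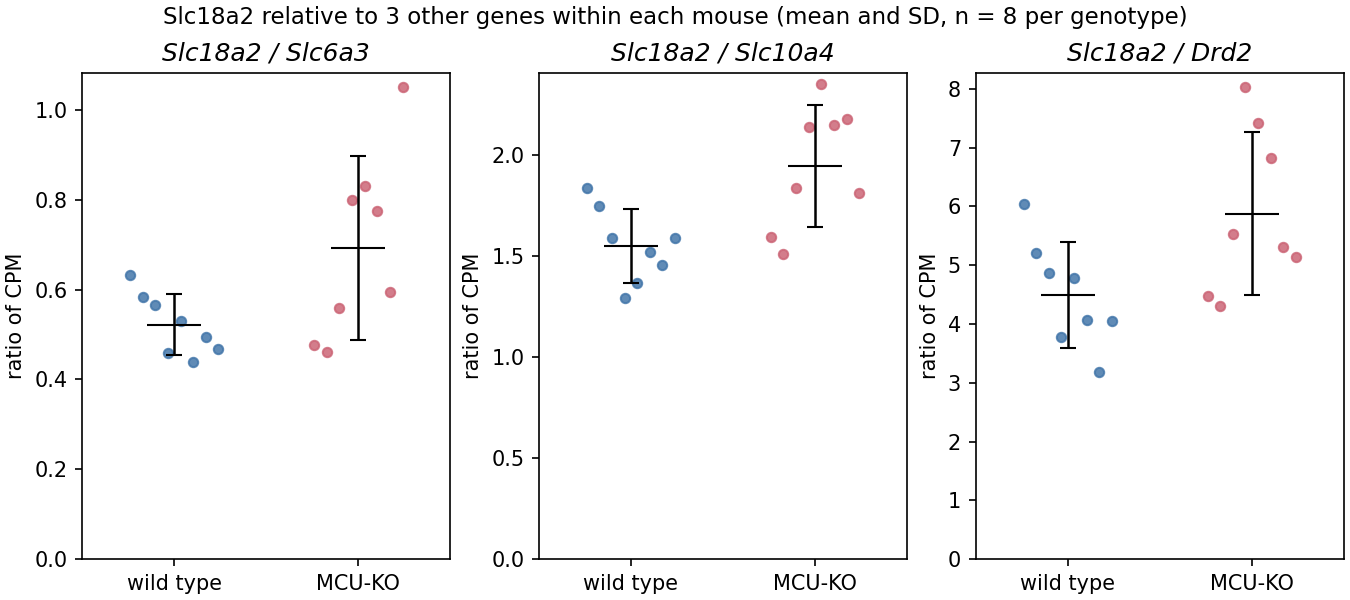
The y axes, from 0, give the ratio of CPM of Slc18a2 to Slc6a3, Slc10a4 or Drd2 in each mouse; bars and whiskers are the mean and SD over 8 mice per genotype. MCU-KO mice reach 1.05, 2.35 and 8.02, above the wild-type maxima of 0.632, 1.84 and 6.04, and the lower MCU-KO mice lie within the wild-type range.

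Libraries also differed in how reads fell on long and short genes. For each mouse log2 CPM was centred gene by gene on the mean of the 16 mice, and the slope of these centred values on log2 exon length was taken over 5463 genes, a measure added after the data were seen. A slope is relative to the average mouse, and a positive one means more reads on long genes than in that average. The slope ran from -0.06 through a median of -0.02 to 0.05 in wild type and from -0.06 through 0.02 to 0.07 in MCU-KO, and the means differed by 0.03 (exact permutation p = 0.144). After removal of genotype means, the log2 ratio of Slc18a2 to Drd2 followed the slope over the 16 mice with Pearson r = 0.76 (permutation p = 0.00096, adjusted over 3 ratios 0.0029) and Spearman rho = 0.81 (permutation p = 0.00047), and r was 0.62 without the 2 mice farthest from the median ratio. The Slc18a2 to Slc10a4 ratio gave r = 0.56 (permutation p = 0.0335, adjusted 0.0503), rho = 0.63 (permutation p = 0.0134) and r = 0.65 without the 2 farthest. The Slc18a2 to Slc6a3 ratio gave r = 0.11 (permutation p = 0.737) and rho = 0.33 (permutation p = 0.223), and r = 0.62 without MCU-KO mice 8 and 2. These 3 ratios are the ones with the smallest genotype p among the 15, and the adjustment over 3 does not allow for that choice. The part of the length slope in the genotype differences of these ratios was not tested.

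Among single genes, Sncg, the shortest at 852 exon bases, had r = -0.63 with the slope (permutation p = 0.0123, adjusted over 6 genes 0.0739), rho = -0.56 (permutation p = 0.0312) and r = -0.52 without the 2 farthest mice. Slc18a2 had r = 0.45 (permutation p = 0.0977), made of 0.84 within wild type (exact permutation p = 0.0085) and 0.17 within MCU-KO (exact permutation p = 0.695). Drd2 had r = -0.47 (permutation p = 0.0815, adjusted 0.195) and rho = -0.54 (permutation p = 0.0395). For Slc6a3, Gpr37 and Slc10a4 r was 0.28, 0.20 and 0.06 (permutation p = 0.337, 0.463 and 0.824). Across the 6 genes r did not rise in step with exon length.

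Mouse-to-mouse variation was then compared between the 6 genes as the correlation of deviations of log2 CPM from the genotype mean over 16 mice. The 4 genes Slc6a3, Slc18a2, Slc10a4 and Drd2 had positive r in all 6 of their pairs, from 0.27 to 0.68. The lowest, Slc18a2 with Drd2, had r = 0.27 (permutation p = 0.34) and rho = 0.08 (permutation p = 0.776). Its r was below those of Slc18a2 with Gpr37 (0.34) and Drd2 with Sncg (0.29). The pair with the highest r was Slc18a2 with Slc10a4, the vesicular transporters, at r = 0.68 (permutation p = 0.0046, adjusted over 15 pairs 0.0691) and rho = 0.52 (permutation p = 0.0462, adjusted 0.173). Within genotypes r was 0.76 in wild type (exact permutation p = 0.0319) and 0.62 in MCU-KO (exact permutation p = 0.0971), and it was 0.57 without the 2 mice farthest from the median of Slc18a2. In wild-type mice 1 and 6 and MCU-KO mice 4, 5 and 7 both genes were above their genotype mean.

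Slc6a3 with Slc10a4 had r = 0.57 (permutation p = 0.0312, adjusted 0.145) and rho = 0.68 (permutation p = 0.0063, adjusted 0.0943), and r was 0.79 without MCU-KO mice 8 and 7. Slc6a3 with Drd2 had r = 0.57 (permutation p = 0.0386, adjusted 0.145) and rho = 0.53 (permutation p = 0.0438, adjusted 0.173), and r was 0.77 without the same 2 mice. MCU-KO mouse 8 broke this pattern, with Slc6a3 at -0.69 and Drd2 at 0.12 on the log2 scale from their genotype means. Drd2 with Slc10a4 had r = 0.59 (permutation p = 0.0248, adjusted 0.145) and rho = 0.56 (permutation p = 0.027, adjusted 0.173), and r was 0.38 without MCU-KO mouse 6 and wild-type mouse 8. None of the 15 pairs passed 0.05 after adjustment.

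The dopamine transporter and VMAT2, which handle the same molecule in turn, had r = 0.40 (permutation p = 0.159) and rho = 0.26 (permutation p = 0.363). Within wild type r was 0.70 (exact permutation p = 0.0418) and within MCU-KO 0.26 (exact permutation p = 0.532), and the difference between these was not tested. Sncg had r between -0.27 and 0.29 with the other 5 genes and Gpr37 between -0.26 and 0.34, with permutation p-values from 0.19 to 0.964.

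**Figure D4:**
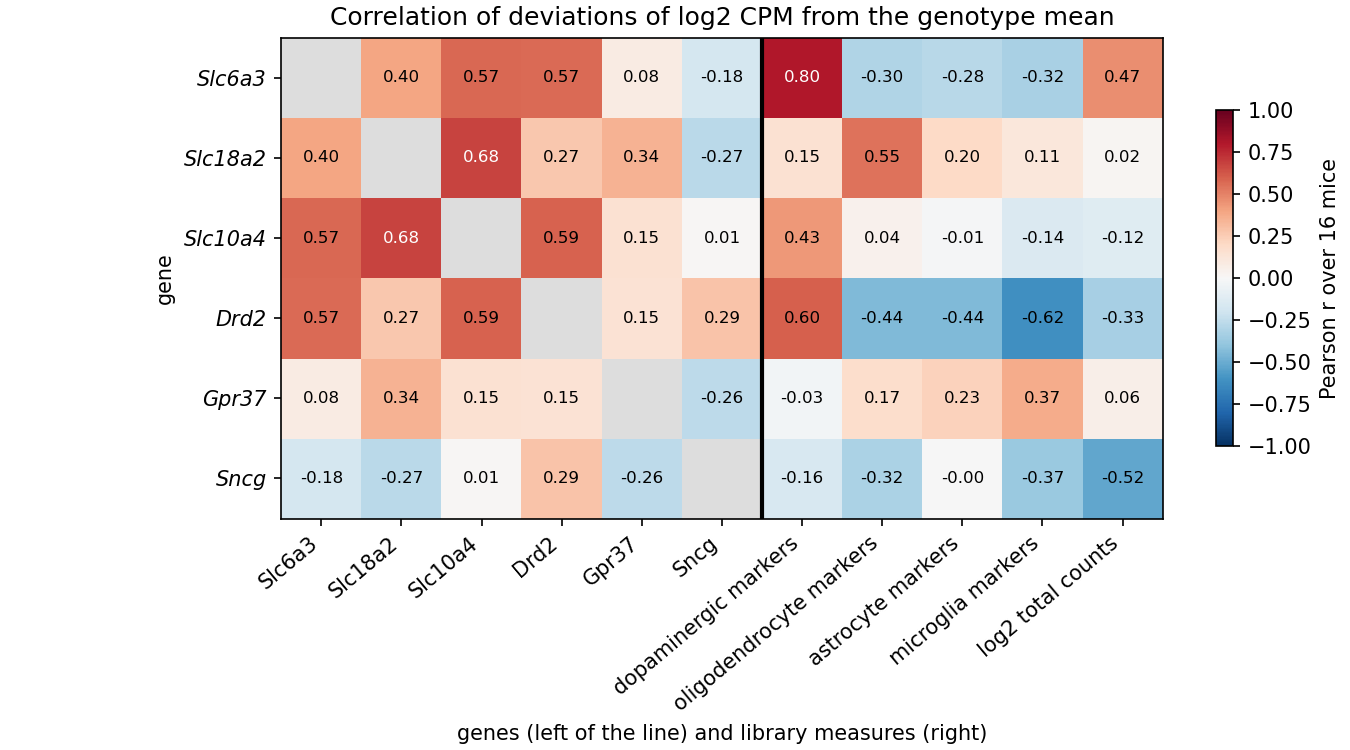
Each cell gives the Pearson r over 16 mice between deviations of log2 CPM from the genotype mean, red for positive and blue for negative values; columns right of the line are mean marker levels and the log2 total counts. Slc6a3, Slc18a2, Slc10a4 and Drd2 have r of 0.27 to 0.68 with each other, and Slc6a3 with the dopaminergic markers reaches 0.80. Drd2 with Sncg (0.29) and Slc18a2 with Gpr37 (0.34) lie above the lowest of these, Slc18a2 with Drd2.

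Slc6a3 followed the mean log2 CPM of the 15 dopaminergic neuron markers, a list that holds none of the 6 genes. Over the 16 mice r was 0.80 (permutation p = 0.0014, adjusted over 30 relations 0.0429) and rho 0.66 (permutation p = 0.0078, adjusted 0.235). Within genotypes r was 0.91 in MCU-KO (exact permutation p = 0.0055) and 0.50 in wild type (exact permutation p = 0.208), and it was 0.70 without MCU-KO mice 8 and 7. MCU-KO mice 6 and 8 were lowest in both measures. On the log2 scale they stood at -0.23 and -0.24 for the markers and -0.46 and -0.69 for Slc6a3. In summed marker CPM, however, MCU-KO mouse 8 (14178) lay above MCU-KO mouse 4 (13935). With the single markers of this list the r of Slc6a3 ran from -0.08 to 0.76, with a median of 0.35.

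Drd2 had r = 0.60 with the same markers (permutation p = 0.0249, adjusted 0.249; rho = 0.51, permutation p = 0.0568; r = 0.36 without MCU-KO mice 6 and 7) and r = -0.62 with the microglia markers (permutation p = 0.0116, adjusted 0.175; rho = -0.56, permutation p = 0.0313; r = -0.45 without the same mice). Slc18a2 had r = 0.15 with the dopaminergic markers (permutation p = 0.589; rho = -0.01, permutation p = 0.965) and r = 0.55 with the oligodendrocyte markers (permutation p = 0.0414, adjusted 0.272; rho = 0.55, permutation p = 0.0438; r = 0.27 without wild-type mouse 1 and MCU-KO mouse 4). Slc10a4 had r = 0.43 with the dopaminergic markers (permutation p = 0.119; rho = 0.33, permutation p = 0.22).

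Sncg had r = -0.52 with library depth (permutation p = 0.0454, adjusted 0.272; rho = -0.41, permutation p = 0.126), a relation that rested on 2 mice, since r was 0.02 without wild-type mouse 6 and MCU-KO mouse 8. Gpr37 had r = 0.17 with the oligodendrocyte markers (permutation p = 0.483; rho = 0.11, permutation p = 0.67), made of 0.65 within wild type (exact permutation p = 0.075) and -0.35 within MCU-KO (exact permutation p = 0.385). With the microglia markers Gpr37 had r = 0.37 (permutation p = 0.203). That was made of 0.82 within wild type (exact permutation p = 0.0202) and -0.64 within MCU-KO (exact permutation p = 0.0879). With the astrocyte markers its r was 0.52 within wild type and -0.34 within MCU-KO. Of the 30 relations with markers and depth, 1 passed 0.05 after adjustment, Slc6a3 with the dopaminergic markers. It did so on Pearson's r and not on Spearman's rho. Partial correlation given the dopaminergic markers gave r = 0.69 for Slc18a2 with Slc10a4 (permutation p = 0.0061), 0.19 for Slc6a3 with Drd2 (permutation p = 0.475), 0.42 for Slc6a3 with Slc10a4 (permutation p = 0.113) and 0.46 for Slc10a4 with Drd2 (permutation p = 0.089). Given the length slope, the values for these pairs were 0.73 (permutation p = 0.00076), 0.83 (permutation p = 9.0e-05), 0.58 (permutation p = 0.0282) and 0.71 (permutation p = 0.0039). Slc18a2 with Drd2 stood at 0.62 (permutation p = 0.0121) in place of 0.27, and Slc18a2 with Slc6a3 fell to 0.32 (permutation p = 0.317) from 0.40. The p-values of these partial correlations are unadjusted.

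**Figure D5:**
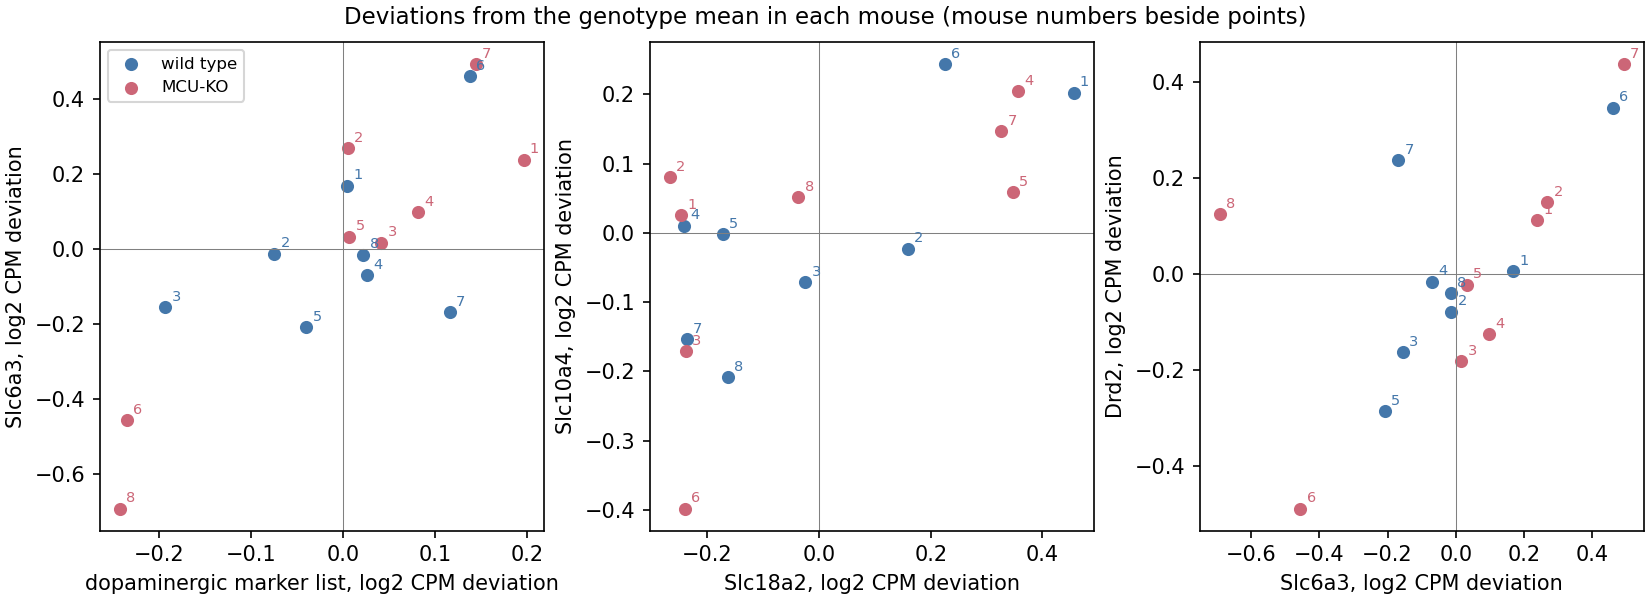
Axes give the deviation of log2 CPM from the genotype mean in each of 16 mice, for Slc6a3 against the mean of the dopaminergic markers, Slc10a4 against Slc18a2 and Drd2 against Slc6a3; colours are genotypes and numbers are mice. MCU-KO mice 6 and 8 sit low for Slc6a3 and the markers, and MCU-KO mouse 8 is low in Slc6a3 (-0.69) but not in Drd2 (0.12).

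The tested genes most like each member, by the same r over 16 mice among 12389 others, are given as a description. For Slc6a3 they were Dusp1 (r = 0.83), Adam9 (0.83) and Fam167a (0.83), and Ddc, the enzyme that makes dopamine, was in position 5 (0.76). Within wild type the r of these 4 genes was 0.18, 0.66, 0.50 and 0.49, and within MCU-KO 0.95, 0.89, 0.94 and 0.89. For Slc18a2 they were Snap25 (0.89), a membrane fusion protein of terminals, Scrt2 (0.86) and Kcnd3 (0.86), a pore subunit of A-type potassium channels. For Slc10a4 they were Cd47 (0.87), Enpp5 (0.87) and Bmp2 (0.86).

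For Drd2 the first in this order were Cplx1 (0.91), the complexin that clamps vesicle fusion, and Tagln3 (0.84). For Sncg they were Nedd8 (0.89), a ubiquitin-like modifier, and Ndufa2 (0.87) and Ndufb7 (0.86), both subunits of respiratory complex I. Sncg also had r = -0.63 with the length slope, and the part of that slope in this order was not tested. For Gpr37 they were Gnb1l (0.86), Zxdb (0.86) and Zfp446 (0.83), with 0.93, 0.92 and 0.91 within wild type and 0.62, 0.69 and 0.50 within MCU-KO. Among all genes, Slc18a2 was in position 33 for Slc10a4 and Slc10a4 in position 100 for Slc18a2. Slc10a4, Drd2 and Slc18a2 were in positions 187, 203 and 950 for Slc6a3. Drd2 was in position 2358 for Slc18a2, and Slc18a2 in position 2008 for Drd2. Sncg stood no higher than position 1866 for any of the other 5, and that was for Drd2, ahead of Slc18a2.

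Relatives and partners of the 6 genes had no called member in edgeR or DESeq2. Of 12 relatives of the transporters 3 were tested, with 0 higher and 0 lower at an adjusted p under 0.05 and a median log2 fold change of -0.48, against 0.0025 over all tested genes. Slc6a2 and Slc6a4, the transporters of noradrenaline and serotonin, had at most 1 and 51 reads in any mouse. Slc18a1 (VMAT1) had at most 176 reads in any mouse and was at 0 reads in 4 control and 5 MCU-KO libraries. Slc10a2, Slc10a5, Slc10a6 and Slc18a3 (the vesicular acetylcholine transporter) had 0 reads in all 16 mice, where 3 reads of the library correspond to 0.136 to 0.212 CPM, a limit that covers counting error only. Slc10a1 had 0 reads in all 8 wild-type mice and reached 28 reads in MCU-KO. Slc10a3 stood at 7.55 ± 6.31 CPM (SD, n = 8) in wild type, and Slc10a7 had the smallest p of this list, with a log2 fold change of -1.70 ± 1.48 (SE, edgeR adjusted p = 1.00) and 0 reads in 6 of the 16 libraries.

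Of 27 receptor relatives and D2 signalling genes 22 were tested, 12 with positive and 10 with negative estimates around a median of 0.03, and 0 were called. Drd3 and Drd4 had 0 reads in all mice, while Drd1 and Drd5 had at most 144 and 116 reads in 1 mouse and were at 0 in 4 of 8 wild-type mice each. Grk6, a kinase that phosphorylates active receptors, had the smallest p of this list, with a log2 fold change of -0.42 ± 0.20 (SE, edgeR adjusted p = 1.00).

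Of the 14 synuclein and GPR37 relatives and partners, all tested, 7 had positive and 7 negative estimates around a median of 0.01, and 0 were called. Sncb had a log2 fold change of -0.20 ± 0.12 (SE) and Gpr37l1, the glial relative of Gpr37, -0.05 ± 0.32 (SE), each with an edgeR adjusted p of 1.00.

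Of 26 regulators of DAT and VMAT2 24 were tested, 12 positive and 12 negative around a median of 0.0037, and 0 were called. Sv2c, a vesicle glycoprotein of dopaminergic terminals, had the smallest p of all these lists, with wild-type mice at 823 ± 82.3 CPM and MCU-KO mice at 960 ± 91.5 CPM (SD, n = 8 each). Its log2 fold change was 0.22 ± 0.08 (SE, edgeR adjusted p = 0.849). Of 16 genes of dopamine synthesis and breakdown 14 were tested, 4 positive and 10 negative around a median of -0.06, and 0 were called. Spr, sepiapterin reductase of cofactor synthesis, had the smallest p of this list at -0.34 ± 0.15 (SE, edgeR adjusted p = 1.00), and Th stood at -0.06 ± 0.12 (SE, edgeR adjusted p = 1.00).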

How the data were processed

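Substantia nigra RNA bound to tagged ribosomes was sequenced from 8 control (wild type here) and 8 MCU-KO mice. Per the labels and the study's methods, the authors trimmed reads, aligned them with STAR to mm10 and counted reads per Ensembl gene with HTSeq, and the deposited values are raw counts. Strand settings were not given in the sources used here. Labels do not state litters or days, so p-values measure the spread between these mice.

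Counts were tested with edgeR 4.0.16 (quasi-likelihood, TMM, filterByExpr by genotype, 12390 genes kept, Benjamini-Hochberg adjustment, threshold 0.05). DESeq2 1.42.0 and limma 3.58.1 were alternatives. CPM use TMM library sizes, and log2 CPM a prior count of 2. Levels per kilobase use the union of exons. Ratios were tested over all splits of the mice, and correlations with 100000 permutations within genotype (10000 with a mouse left out). Gene positions come from GENCODE and promoter windows from RefSeq, both on GRCm38, and their annotated starts differ for 5 of the 6 genes. Statistical scripts were tested on simulated data.

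The 6 genes and all lists were chosen with earlier results of these data known. Named genes are the 6, their listed relatives, in each list the gene with the smallest p, and the 3 genes most correlated with each of the 6. Some genes that this rule names are not reported here. Same-numbered mice did not deviate together (correlations from -0.06 to 0.03), so numbers were not taken as pairs.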

Additional observations from a re-analysis of the deposited data

Results flagged for a closer look

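In 5 cases a value lay farther from the rest of their group than Dixon's test at the 5% level allows for 8 mice. With 52 groups examined, about 2.6 such values arise by chance, at 1 in 20 groups. MCU-KO mouse 8 gave 3 of the 5, in a log2 ratio of Slc6a3 to Slc10a4 of 0.784, a log2 ratio of Slc6a3 to Drd2 of 2.29 and a library total of 14129527 counts. Wild-type mouse 7 had a low log2 ratio of Slc6a3 to Drd2 of 2.69, with Drd2 at 446 CPM and Slc6a3 at 2874 CPM. Wild-type mouse 1 had a high log2 ratio of Slc10a4 to Sncg of 0.486, with Sncg at 892 CPM, the lowest of its group.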

How the results depend on the processing

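The 6 genes stayed uncalled under every alternative run. Across all genes, DESeq2 called 90 and a replicate block 14, against 22. Mouse numbers did not pair the mice (0 of 8 mouse numbers correlated best with their own number), and the block called 0 of the 6 genes. For the log2 ratio of Slc18a2 to Slc6a3 the block gave 0.37 with an exact sign-flip p of 0.125. With the block the exact sign-flip p was 0.0703 for Slc18a2 to Slc10a4 and 0.0859 for Slc18a2 to Drd2, against 0.0085 and 0.0315 without it. The Slc18a2 to Slc6a3 difference ran from 0.27 to 0.44 with 1 mouse left out, and its unadjusted exact permutation p rose above 0.05 in 9 of 16 cases (0.0549 to 0.0824), those without wild-type mice 4 to 8 or MCU-KO mice 4, 5, 6 or 8. The cause was not tested. Slc6a3 with the dopaminergic markers kept r between 0.72 and 0.87 with 1 mouse left out.

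Directions turned as follows. Without length scaling the log2 difference was -1.58 for Sncg over Slc6a3 and -0.62 for Slc10a4 over Slc18a2, by construction. Without MCU-KO mice 6 and 8 the log2 fold change of Slc6a3 was 0.0085. The r of Slc6a3 with Gpr37 was -0.018 with genotype means kept and that of Slc10a4 with Sncg -0.090 with library totals only, and given the length slope, added after the data were seen, r was 0.024 for Slc18a2 and -0.014 for Drd2 with Sncg. With 1 mouse left out, log2 ratio differences crossed 0 for Slc6a3 to Slc10a4 (-0.095 to 0.060), Slc6a3 to Drd2 (-0.047 to 0.13), Slc6a3 to Sncg (-0.12 to 0.094) and Slc10a4 to Sncg (-0.065 to 0.067). The r values crossed 0 for Slc6a3 with Gpr37 (-0.050 to 0.31), Slc6a3 with Sncg (-0.47 to 0.17), Slc10a4 with Gpr37 (-0.061 to 0.38), Slc10a4 with Sncg (-0.22 to 0.19) and Drd2 with Gpr37 (-0.056 to 0.38).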
